A study of Populus alba x Populus glandulosa with 12 samples.

Results

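The genes described here are 40 pairs of gene copies in the hybrid poplar 84K. In each pair 1 copy lay on the A set and 1 on the B set of the genome assembly, on the chromosome of the same number. A pair was taken where a KEGG orthology (KO) name was carried by exactly 2 gene models, Pag.A and Pag.B, where neither had a pathway assigned in the deposited table, and where each averaged 20 FPKM or more on day 0. FPKM is fragments per kilobase of transcript, scaled to the library's fragment total, a level per length. Of 85392 gene models these are 80 genes. They come from 847 such one-to-one pairs, of which 436 had no pathway and 100 reached the level. The other 60 pairs at that level lay within mapped pathways. WHY1, PRDX6, NXN and CST3 were set aside by name, and 0 pairs were lost through this. Of the 40 pairs, 34 had Gene Ontology (GO) terms for at least 1 copy, and in 31 of them both copies had the same terms. The terms differed for CDC25, NOP53 and UBE2V. The pairs lay on 15 chromosome numbers. For 39 of 40 a neighbouring one-to-one pair on the A chromosome was also within 100 gene numbers on the B chromosome, as for 97.4% of all 847 pairs, and MAF1 was the exception.

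Such copies come from both parents of a hybrid. They usually encode similar proteins, while their promoters and nearby sequence can differ, so that the level of each copy can be set in part on its own. When both copies respond alike to a treatment, their ratio stays as it was. When they do not, the gene's transcripts shift from one parental version toward the other. Protein was not measured here. Which parent A and B stand for is stated in none of the sources used.

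RNA was taken from leaves of wild-type 84K poplar (Populus alba x Populus glandulosa) at days 0, 3, 6 and 9 of drought. Each day has 3 libraries, 12 in all, and the label CK marks day 0 as the control. All 4 days carry the treatment label drought, and plants kept watered through days 3, 6 and 9 were not analysed here. Each day also has its own batch label, so a batch and a day cannot be told apart anywhere below. The series text calls the replicates biological. No source used says whether separate plants were sampled, so the p-values reflect only how far these libraries spread, which may in part be technical.

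FPKM sums per library lay between 684857 and 732119, and relative depth, read from the spacing of low values, between 0.895 and 1.12 times that of the first control library. The summed level of leaf mesophyll markers (44 genes under 7 of 8 names, among them rbcS and LHCB1) was 21218 to 21784 FPKM over the libraries of day 0, 10907 to 12255 (day 3), 781 to 798 (day 6) and 699.8 to 867 (day 9). Guard-cell markers (16 genes under 3 of 3 names) summed to 26.9 to 32.6 FPKM (day 0), 24.5 to 31.4 (day 3), 42.2 to 49.8 (day 6) and 39.1 to 46.2 (day 9), and their members went opposite ways. FAMA (4 genes) went from 19.1 to 21.7 FPKM on day 0 down to 2.07 to 2.20 on day 6 and 1.05 to 1.93 on day 9. The other 12 genes, which match both SLAC1 and SLAH, went from 7.76 to 10.8 FPKM up to 39.96 to 47.7 and 37.6 to 45.2. Cellulose synthase genes, the 1 matched name of 4 for vascular and wall tissue, summed to 489 to 497 FPKM (day 0), 307 to 327 (day 3), and 106 to 121 (days 6 and 9). Markers of dividing cells (16 genes under 2 of 3 names) summed to 55.5 to 69.9 FPKM (day 0), 107 to 134 (day 3), 59.3 to 71.9 (day 6) and 32.2 to 44.2 (day 9). The day 3 rise lay in CDC20 (9 genes), at 29.7 to 54.3 FPKM on day 0 and 93.0 to 111 on day 3. PCNA (7 genes) stood at 11.9 to 25.7 and 13.8 to 22.4 FPKM on those days. The part of these shifts in the results below was not tested, and fewer cells of a type and less RNA per cell cannot be told apart in whole leaves.

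Day 0 levels chose the pairs and are given as a description. Copies ranged from 20.1 to 2555 FPKM with a median of 32.3. The A copy had the higher mean in 20 pairs and the B copy in the other 20. The higher copy stood at a median of 1.14 times the lower, under 1.2 times in 25 pairs and over 1.5 times in 5. Those 5 were ALKBH6 (2.92 times), ATOX1 (1.79 times) and RBM23_39 (1.61 times), where B was higher, and FTRC (1.79 times) and TPC1 (1.67 times), where A was higher. The same copy was higher in all 3 libraries in 31 of 40 pairs. Just inside the threshold were PFDN2, at 24.7 FPKM for A and 20.1 for B, and CWC22, at 20.7 and 23.0. Just outside were ANKZF1, at 19.3 and 20.9, and AGFG1, at 19.5 for both. Since a level of at least 20 FPKM was asked of day 0 only, copies could fall to any level afterwards. No source used here states how reads that match both copies were assigned, and reads shared that way would make the copies look more alike than they are.

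Both copies of a pair mostly moved the same way, and falls were more frequent than rises. On day 3, 17 of the 80 copies had risen and 35 had fallen against day 0 (limma on log2(FPKM + 1), adjusted p under 0.05 over all tested genes). On this scale the change of a copy at few FPKM is understated. In what follows, ± is the SD over 3 libraries for levels and shares and the SE for log2 changes. Among all 40736 tested genes 22.6% rose and 25.2% fell, and among the 7085 that averaged at least 20 FPKM on day 0, 22.8% rose and 45.3% fell. On day 6, 20 copies had risen and 50 fallen, where the background was 29.2% and 47.6% of all genes and 24.2% and 63.6% of genes at that level. On day 9, 19 had risen and 48 fallen, beside 30.9% and 46% of all genes and 25.5% and 61.5% at that level. The copies' shares in each direction, 21.2% up and 43.8% down (day 3), 25% and 62.5% (day 6), 23.8% and 60% (day 9), were close to those of genes at a like level. The median change of the 80 copies on the log2 scale was -0.12, -0.35 and -0.27 on days 3, 6 and 9, beside -0.01, -0.21 and -0.18 for all tested genes and -0.15, -0.48 and -0.45 for genes at that level.

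The balance of rises and falls depended on how libraries were scaled. With median-ratio scaling in place of FPKM as deposited, the median change of all genes moved from -0.21 to 0.01 on day 6 and from -0.18 to -0.00041 on day 9. The copies were then split into 16 risen and 33 fallen (day 3), 26 and 37 (day 6), and 28 and 35 (day 9). The direction of 12 called copy changes crossed 0 with this choice, and these are given in the closing section. The comparison of A with B within a library does not: scaling changed 0 of its calls.

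Pair by pair, both copies had fallen in 14 pairs on day 3, 23 on day 6 and 21 on day 9. Both had risen in 7, 8 and 8 pairs. The copies were called in opposite directions in 0 pairs on day 3 and in 2 pairs, CTNS and TRAPPC3, on days 6 and 9. With median-ratio scaling neither pair was called in opposite directions, since CTNS A and TRAPPC3 B were not called (adjusted p 0.251 and 0.208 on day 6, 0.428 and 0.990 on day 9). Only 1 copy was called in 10, 4 and 5 pairs, and neither in 9, 3 and 4. Across the 40 pairs, the changes of A and B had a Pearson r of 0.91 on day 3, 0.94 on day 6 and 0.95 on day 9. This is a description: the copies of a pair share their libraries and possibly reads. These joint counts were not taken over all tested pairs or pathway pairs, so whether the 40 pairs stand out in them is unknown.

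**Figure D1:**
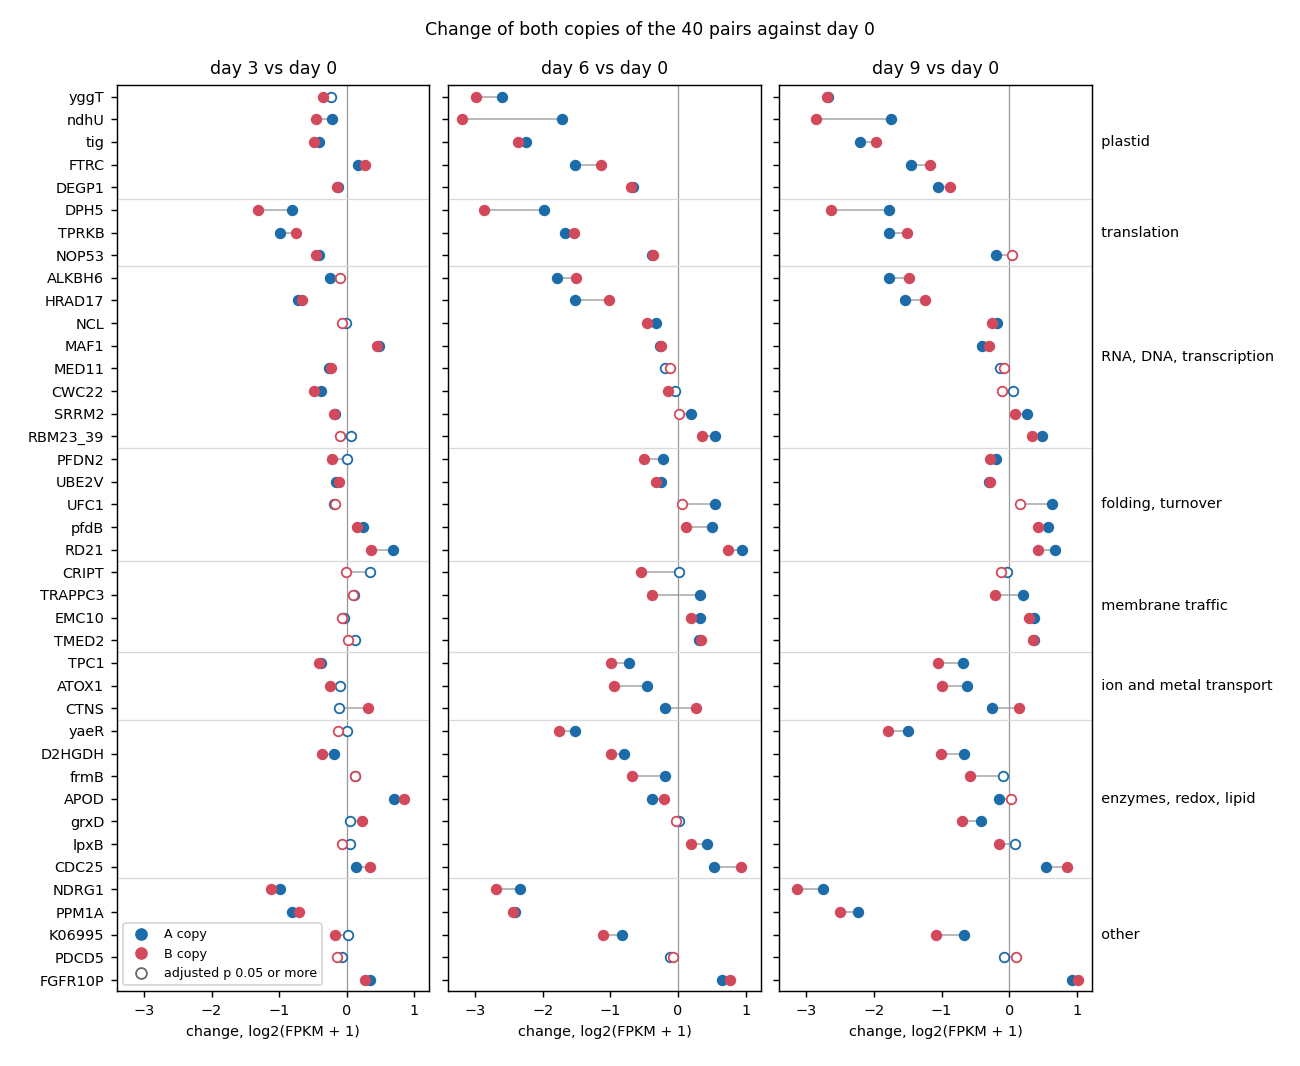
Change of the A copy (blue) and the B copy (red) of each of the 40 pairs against day 0, as the log2(FPKM + 1) difference of day means (3 libraries a day), with pairs grouped by role and a line joining the copies. Filled points had an adjusted p under 0.05; the copies mostly lie close together, and the longest lines on days 6 and 9 belong to ndhU and DPH5.

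Unequal change was measured within each library, as log2(FPKM + 1) of A minus that of B, and compared between days over 756 pairs of the table. A positive value means that A rose more or fell less than B, written here as toward A. On day 3, 3 pairs were called toward A (DPH5, RD21 and ATOX1) and 3 toward B (CTNS, CDC25 and APOD), 7.5% of the 40 in each direction and 15% together, beside 9.52% of all tested pairs (4.76% in each direction) and 20% of the 60 pathway pairs at the same level (11.7% toward A and 8.33% toward B). On day 6 the counts were 19 toward A and 6 toward B, together 62.5%, beside 35.8% of all tested pairs and 51.7% of the pathway pairs. On day 9 they were 15 and 7, together 55%, beside 35.3% and 50%. By direction on day 6, 47.5% of the 40 pairs and 19.6% of all tested pairs were called toward A, and 15% and 16.3% toward B. Among pathway pairs these shares were 30% and 21.7%. On day 9, 37.5% of the 40 and 18.8% of all tested pairs were called toward A, and 17.5% and 16.5% toward B, with 30% and 20% of pathway pairs. Whether the 40 pairs differ from the others in these shares was not tested.

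Without trend and robust variance moderation, the day 3 calls of ATOX1, CDC25 and APOD were lost (adjusted p 0.153, 0.0781 and 0.153). Most unequal changes were small. Their median size on the log2 scale was 0.11, 0.21 and 0.24 on days 3, 6 and 9, beside 0.12, 0.21 and 0.21 over all tested pairs. Over the pathway pairs at the same level it was 0.13, 0.19 and 0.21. The 95% interval lay within 0.5 on either side of 0 in 37, 28 and 28 of the 40 pairs. A difference of at least 1 was called in 1 pair only, ndhU, on days 6 and 9. Counts by interval and by this minimum were not taken over the other tested pairs. Over the 3 days, 27 pairs were called on at least 1 day: 7 on 1 day, 14 on 2 and 6 on all 3. The other 13 were called on none, and these counts over days were not taken for the other tested pairs. No pair was called toward A on one day and toward B on another, among these 3 comparisons, which share the day 0 libraries.

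**Figure D2:**
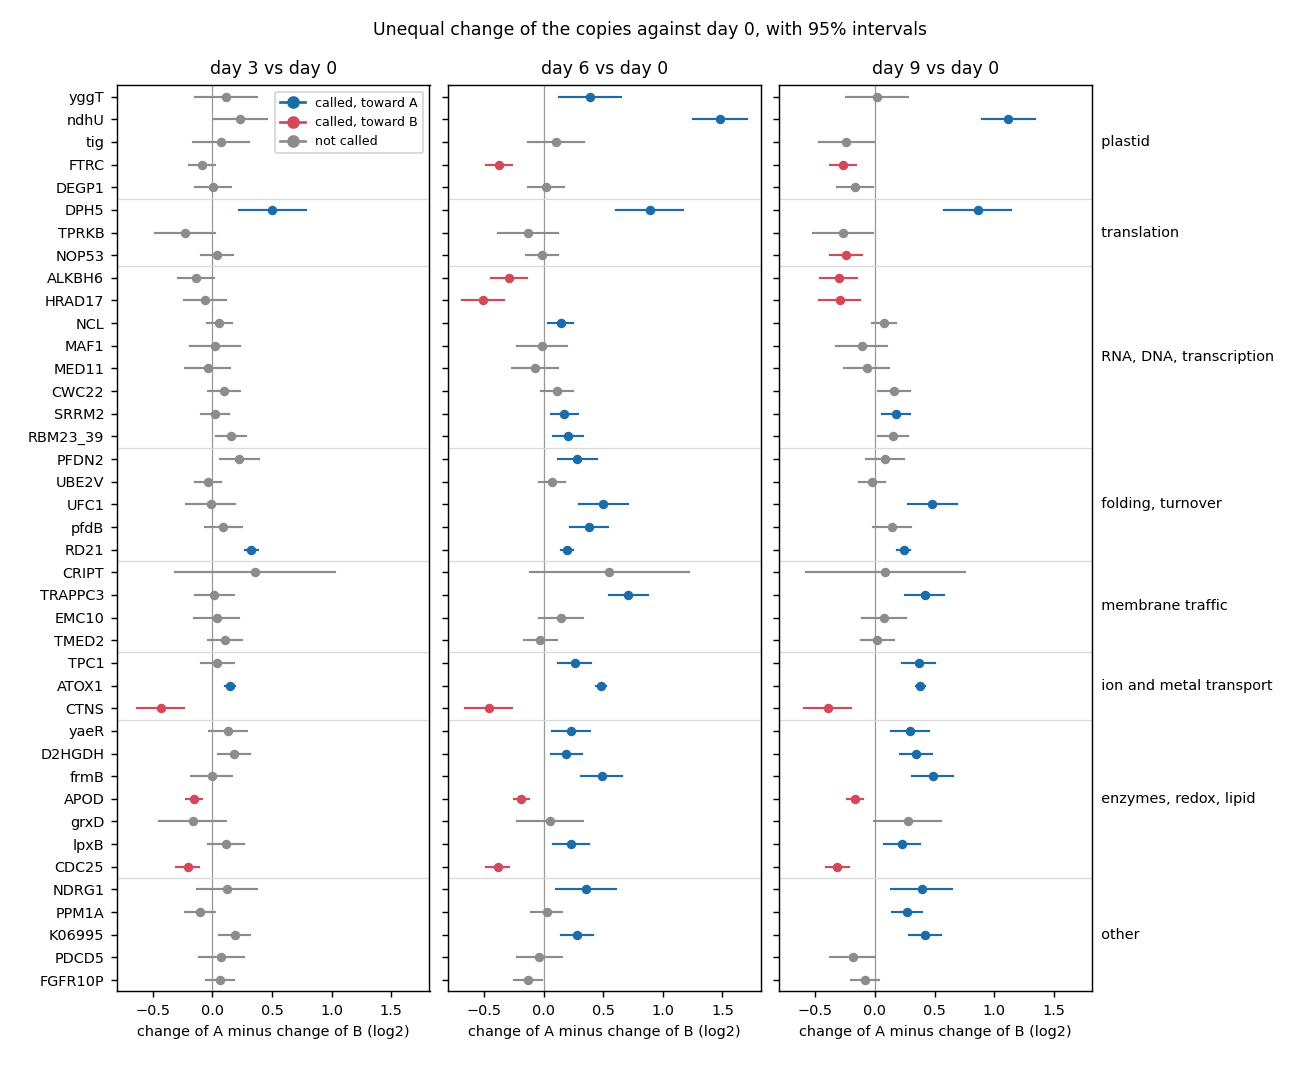
Unequal change of the copies of each pair against day 0, as the change of A minus the change of B on the log2(FPKM + 1) scale, with 95% intervals from limma (3 libraries a day). Blue points were called toward A and red toward B at an adjusted p under 0.05; 6 pairs are coloured on day 3, 25 on day 6 and 22 on day 9.

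Pairs are described below by role. Roles were assigned after values were seen, so their counts are a description, to be read against the shares risen and fallen among genes at that level (24.2% and 63.6% on day 6, 25.5% and 61.5% on day 9).

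Copies of 5 genes with a plastid role fell. These were ndhU (a subunit of the chloroplast NADH dehydrogenase-like complex), yggT (GO: chloroplast fission and nucleoid organization), tig (trigger factor, a chaperone for new proteins), FTRC (the catalytic subunit of ferredoxin-thioredoxin reductase, which passes electrons from ferredoxin to thioredoxins) and DEGP1 (a protease of the chloroplast). All 10 copies had fallen on day 6, with a median change of -1.98, and all 10 on day 9, with a median of -1.85. On day 3, 6 had fallen and 2, both of FTRC, had risen. The leaf mesophyll markers fell over the same days, from at least 21218 to at most 867 FPKM in sum.

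The pair with the most unequal fall was ndhU. Its A copy (Pag.A06G000724.v3.1) stood at 47.0, 51.7 and 53.1 FPKM (day 0), 41.9, 43.4 and 44.6 (day 3), 14.7, 14.6 and 15.0 (day 6) and 13.8, 14.2 and 15.2 (day 9). Its B copy (Pag.B06G000621.v3.1) stood at 41.2, 42.7 and 42.5 FPKM (day 0), 27.9, 32.0 and 32.0 (day 3), 3.33, 3.42 and 4.55 (day 6) and 4.78, 5.73 and 4.36 (day 9). The copies did not overlap on any day, A being the higher, and every library of days 3, 6 and 9 was below all of day 0 for both. On day 6 the A copy was at 0.292 of its day 0 mean and the B copy at 0.0894, a log2 change of -1.71 ± 0.05 (SE) and -3.19 ± 0.10, with adjusted p of 5.14e-11 and 8.8e-11. The difference between these changes was 1.48 (95% interval 1.26 to 1.70), with an adjusted p of 3.36e-08. The share of A in the sum of both copies was 54.5 ± 1.16% (day 0), 58.6 ± 1.26% (day 3), 79.8 ± 2.61% (day 6) and 74.4 ± 3.22% (day 9). The unequal change was 1.12 on day 9 (adjusted p 1e-06), while on day 3 it was 0.23 and was not called (adjusted p 0.200).

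Also on chromosome 6 of both sets lay yggT (Pag.A06G000741.v3.1 and Pag.B06G000640.v3.1). Its A copy stood at 29.4 ± 0.435 FPKM (day 0), 24.8 ± 0.905 (day 3), 4.03 ± 0.397 (day 6) and 3.81 ± 0.942 (day 9). The B copy stood at 31.7 ± 1.35, 24.6 ± 0.837, 3.18 ± 0.823 and 4.07 ± 0.777. These were among the largest falls of the 40 pairs, with log2 changes of -2.60 and -2.99 on day 6 and -2.68 and -2.70 on day 9. The copies were close on day 9, with an unequal change of 0.02 (95% interval -0.24 to 0.28). The call on day 6, 0.39 toward A (adjusted p 0.0227), was lost without any 1 of 4 libraries, replicates 2 and 3 of day 0 and of day 6, with values between 0.25 and 0.55 and an adjusted p of up to 0.111. At 3 to 4 FPKM the A share spread widely between libraries (56.3 ± 6.57% on day 6).

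FTRC also fell on days 6 and 9, but its unequal change was toward B. Its A copy (Pag.A01G003925.v3.1) stood at 87.6, 87.5 and 87.8 FPKM (day 0), 93.9, 101 and 102 (day 3), 31.4, 28.3 and 30.2 (day 6) and 28.6, 32.3 and 33.9 (day 9). The B copy (Pag.B01G003660.v3.1) stood at 46.5, 51.5 and 49.2 FPKM (day 0), 58.1, 60.5 and 58.4 (day 3), 23.0, 20.1 and 22.02 (day 6) and 19.7, 21.5 and 22.2 (day 9). A was above B in every library and day, and both copies were higher on day 3 than on day 0 before they fell. On day 6 A had changed by -1.52 ± 0.06 and B by -1.14 ± 0.06 (SE), an unequal change of -0.38 (95% interval -0.48 to -0.27) toward B with an adjusted p of 3.43e-05. On day 9 it was -0.27 (adjusted p 0.000729), and the share of A was 59.9 ± 0.605%, from 64.1 ± 1.18% on day 0. The day 3 rises were 0.17 for A and 0.26 for B, and the rise of A was lost without any 1 replicate of day 0 or replicate 2 or 3 of day 3 (values between 0.15 and 0.21, adjusted p of up to 0.107).

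The copies of tig and DEGP1 fell without a called difference. The tig copies went from 23.4 ± 1.02 FPKM for A and 25.3 ± 1.25 for B on day 0 to 4.12 ± 0.553 and 4.13 ± 0.464 on day 6, with changes of -2.25 and -2.36. Those of DEGP1 went from 30.6 ± 0.846 and 29.9 ± 1.42 FPKM to 14.3 ± 1.29 and 15.8 ± 0.786 on day 9, with changes of -1.05 and -0.88. The intervals of the unequal change were -0.13 to 0.34 for tig on day 6 and -0.32 to -0.02 for DEGP1 on day 9 (adjusted p 0.492 and 0.0770).

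**Figure D3:**
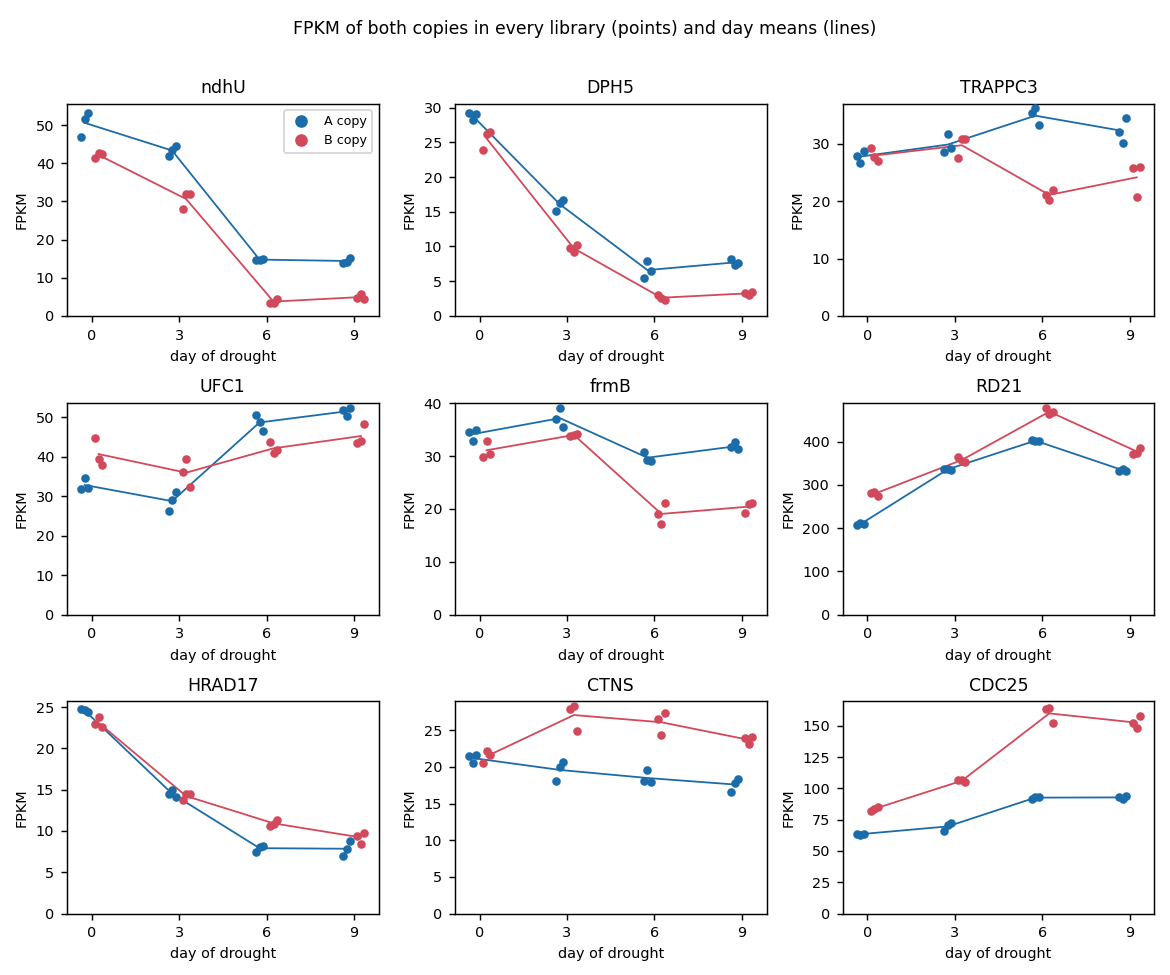
FPKM of the A copy (blue) and the B copy (red) of 9 pairs in each of the 12 libraries by day of drought (points), with lines through the day means (n = 3); each panel has its own axis from 0. The B copies of ndhU and DPH5 end below the A copies, the lines of TRAPPC3 and UFC1 part or cross after day 3, and those of CTNS part on day 3.

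Among 3 genes that act in making ribosomes, tRNA or elongation factors, all 6 copies had fallen on days 3 and 6, by a median of -0.78 and -1.60. On day 9, 5 had fallen. DPH5, a methyltransferase in the making of diphthamide, a modified residue of elongation factor 2, showed the second largest difference between copies. Its A copy (Pag.A02G002552.v3.1) stood at 29.2, 28.3 and 29.0 FPKM (day 0), 15.1, 16.3 and 16.7 (day 3), 5.42, 7.91 and 6.48 (day 6) and 8.27, 7.27 and 7.60 (day 9). Its B copy (Pag.B02G000255.v3.1) stood at 23.9, 26.2 and 26.5 FPKM (day 0), 9.79, 9.22 and 10.2 (day 3), 2.98, 2.52 and 2.37 (day 6) and 3.32, 3.03 and 3.45 (day 9). The copies were close on day 0, with A just above B, and apart in every later library. Against day 0 the A copy changed by -0.81, -1.98 and -1.78 on days 3, 6 and 9, and the B copy by -1.31, -2.88 and -2.64. A and B differed in change by 0.89 (95% interval 0.61 to 1.17) on day 6 and 0.86 (95% interval 0.58 to 1.14) on day 9, with adjusted p of 8.7e-05 and 0.000129. A made up 53.0 ± 1.66% of the sum before drought, 71.2 ± 5.92% on day 6 and 70.2 ± 1.32% on day 9. The difference was called from day 3 on, at 0.50 (adjusted p 0.0257). That first call was lost without replicate 2 or 3 of day 0 or of day 3, with values between 0.46 and 0.55 and an adjusted p of up to 0.0981.

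TPRKB, a subunit of the KEOPS complex that modifies tRNA, fell in both copies. The A copy went from 28.6 ± 2.02 FPKM on day 0 to 13.9 ± 0.119, 8.31 ± 0.675 and 7.67 ± 1.46 on days 3, 6 and 9. The B copy went from 26.4 ± 1.11 to 15.2 ± 1.87, 8.43 ± 0.0929 and 8.64 ± 1.16. On day 3 the changes were already -0.99 and -0.76 (adjusted p 9.39e-06 and 4.7e-05), and no unequal change was called, with -0.27 (95% interval -0.52 to -0.02) on day 9 (adjusted p 0.0883). NOP53, which takes part in assembling the large ribosomal subunit, fell less and by day 9 its B copy was back among its day 0 values. Its B copy stood at 25.9, 28.9 and 26.9 FPKM (day 0), 19.5, 19.9 and 19.5 (day 3), 20.6, 21.4 and 20.7 (day 6) and 28.1, 28.1 and 28.1 (day 9). Day 9 overlapped day 0 there, while days 3 and 6 did not. With median-ratio scaling the fall of B on day 6 was lost (adjusted p 0.06003) and B was called as risen on day 9, by 0.25 (adjusted p 0.000283). The A copy was at 31.5 ± 0.400 FPKM on day 0 and 27.3 ± 1.26 on day 9, a change of -0.20 (adjusted p 0.00198) that was 0.01 with median-ratio scaling. The unequal change on day 9 was -0.24 (95% interval -0.38 to -0.11) toward B (adjusted p 0.00753), after 0.04 and -0.01 on days 3 and 6.

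Of 16 copies of 8 genes for RNA, DNA repair or transcription, 9 had fallen and 2 risen (day 3), 9 and 3 (day 6), and 8 and 4 (day 9). Among genes at that level 45.3% had fallen on day 3, 63.6% on day 6 and 61.5% on day 9. Whether these 16 copies differ from such genes was not tested. HRAD17, the DNA-damage checkpoint clamp loader subunit known as Rad17 in animals and plants, fell in both copies at different paces. Its A copy (Pag.A05G001156.v3.1) stood at 24.8, 24.6 and 24.4 FPKM (day 0), 14.4, 15.0 and 14.1 (day 3), 7.47, 8.04 and 8.24 (day 6) and 6.95, 7.84 and 8.76 (day 9). Its B copy (Pag.B05G001173.v3.1) stood at 23.0, 23.8 and 22.6 FPKM (day 0), 13.8, 14.5 and 14.5 (day 3), 10.6, 10.8 and 11.3 (day 6) and 9.45, 8.47 and 9.72 (day 9). A was above B on day 0, the copies overlapped on day 3, and B was above A in all libraries of day 6. Their changes differed by -0.51 (95% interval -0.68 to -0.33) on day 6, toward B, with an adjusted p of 0.000195. On day 9 the difference was -0.30 (adjusted p 0.0112). The values of the copies then overlapped across libraries, while B was above A within each library. Without replicate 1 of day 9 that call was lost (adjusted p 0.0554), with values between -0.35 and -0.20 over the left-out libraries.

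ALKBH6, of the AlkB family of iron-dependent oxygenases, was the pair with the greatest imbalance at the start. Its A copy (Pag.A13G001144.v3.1) stood at 25.5, 27.1 and 24.6 FPKM (day 0), 20.7, 22.1 and 22.1 (day 3), 6.11, 7.48 and 6.55 (day 6) and 5.85, 7.46 and 7.11 (day 9). Its B copy (Pag.B13G001576.v3.1) stood at 72.3, 78.6 and 74.8 FPKM (day 0), 68.8, 69.2 and 72.2 (day 3), 24.5, 26.0 and 27.2 (day 6) and 24.9, 26.8 and 27.6 (day 9). B was above A throughout, and both fell between days 3 and 6. The share of A, 25.5 ± 0.648% on day 0, was 20.6 ± 1.57% on day 6 and 20.4 ± 1.35% on day 9. Changes of A and B differed by -0.29 (95% interval -0.44 to -0.14) on day 6 and -0.31 (95% interval -0.46 to -0.15) on day 9 (adjusted p 0.00512 and 0.00383). With a pseudocount of 5 in place of 1 the calls were lost (adjusted p 0.848 and 0.696), since adding 5 weighs more on a copy at about 7 FPKM than on one at about 26.

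The other genes of this role moved less. MAF1, the repressor of RNA polymerase III, rose in both copies on day 3, from 26.8 ± 1.44 to 37.4 ± 0.901 FPKM for A and from 25.1 ± 0.6998 to 34.5 ± 1.18 for B, with changes of 0.47 and 0.45. On day 9 it stood below day 0 in both, at 19.9 ± 1.02 and 20.2 ± 1.36 FPKM. That fall was called for both, at -0.41 and -0.30, and for B it was lost with median-ratio scaling (adjusted p 0.229). The copies listed as RBM23_39 carry a double KO annotation, that of this RNA-binding protein family, linked to splicing in animals, and that of SPTY2D1 (SPT2), a histone chaperone, and which of them applies is not settled by the table. Selection used the whole double name, and gene models with only 1 of these names were not looked for. The pair rose from 25.2 ± 0.979 to 37.5 ± 2.08 FPKM for A and from 40.6 ± 1.18 to 52.0 ± 1.05 for B on day 6. A rose more, by 0.20 (adjusted p 0.0151), a call lost without replicate 3 of day 6 (adjusted p 0.0811; values between 0.15 and 0.24 over the left-out libraries). SRRM2, named for a splicing protein, went from 25.0 ± 0.386 to 30.3 ± 0.665 FPKM in A and from 26.5 ± 0.830 to 28.3 ± 0.444 in B on day 9, an unequal change of 0.18 (adjusted p 0.0211). The call was lost without replicate 1 or 2 of day 0 or replicate 1 or 3 of day 9, with values between 0.15 and 0.21 and an adjusted p of up to 0.0908.

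NCL (nucleolin), CWC22 (a splicing factor) and MED11 (a Mediator subunit) had A shares between 47.3% (CWC22, day 0) and 52.6% (NCL, day 6) in their day means. NCL went from 70.0 ± 1.56 to 55.8 ± 1.55 FPKM for A and from 69.8 ± 3.15 to 50.3 ± 1.29 for B on day 6, and the fall of A was lost with median-ratio scaling (adjusted p 0.245). Its unequal change of 0.14 was called (adjusted p 0.0313) and lost without replicate 1 or 3 of day 0 or replicate 2 or 3 of day 6 (values between 0.11 and 0.18, adjusted p of up to 0.134). CWC22 fell on day 3 by -0.39 and -0.49 and stood at 21.6 ± 1.73 and 21.3 ± 0.851 FPKM on day 9, against 20.7 ± 1.01 and 23.0 ± 0.791 on day 0. MED11 stood between 49.0% and 50.3% A share in its day means, and no unequal change was called for it or for CWC22.

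Genes of protein folding and turnover included rises as well as falls. Of the 10 copies of 5 such genes, 5 had risen and 4 fallen on day 6, and again on day 9, and unequal changes were called toward A in 1 pair on day 3, 4 on day 6 and 2 on day 9, and toward B in 0. Toward A was the more frequent direction among all 40 pairs too, with 19 of 25 calls on day 6 and 15 of 22 on day 9. RD21, a papain-like cysteine protease whose Arabidopsis counterpart was named for being responsive to dehydration, rose in both copies. Its A copy (Pag.A14G000239.v3.1) stood at 208, 211 and 209 FPKM (day 0), 336, 336 and 336 (day 3), 403, 402 and 401 (day 6) and 331, 338 and 333 (day 9). Its B copy (Pag.B14G000190.v3.1) stood at 280.4, 283 and 275 FPKM (day 0), 364, 355 and 353 (day 3), 477, 463 and 468 (day 6) and 372, 375 and 385 (day 9). Both copies were above day 0 in every later library and highest on day 6, and A stayed below B throughout. On day 3 the A copy had changed by 0.68 ± 0.02 and the B copy by 0.36 ± 0.03 (SE), with adjusted p of 7.13e-10 and 7.07e-07. The difference was 0.33 (95% interval 0.27 to 0.38) on day 3, 0.19 (95% interval 0.14 to 0.25) on day 6 and 0.24 (95% interval 0.19 to 0.29) on day 9, with adjusted p of 2.9e-07, 1.99e-05 and 2.67e-06. The A share went from 42.8 ± 0.328% before drought to 48.4 ± 0.393% on day 3 and 46.2 ± 0.336% on day 6.

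UFC1, the conjugating enzyme for the ubiquitin-like modifier UFM1, changed its higher copy. The A copy (Pag.A02G001631.v3.1) stood at 31.9, 34.6 and 32.1 FPKM (day 0), 26.2, 29.1 and 31.1 (day 3), 50.7, 48.8 and 46.6 (day 6) and 51.9, 50.4 and 52.5 (day 9). The B copy (Pag.B02G001185.v3.1) stood at 44.8, 39.4 and 38.0 FPKM (day 0), 36.1, 39.5 and 32.4 (day 3), 43.9, 41.0 and 41.6 (day 6) and 43.6, 44.0 and 48.2 (day 9). A was below B in all libraries of days 0 and 3 and above it in all libraries of days 6 and 9, while the B copy overlapped its day 0 values throughout. On day 6 the A copy had risen by 0.55 ± 0.06 (SE, adjusted p 4.2e-06), and the B copy had changed by 0.05 ± 0.08 (adjusted p 0.552). This gave an unequal change of 0.50 (95% interval 0.30 to 0.71) on day 6 and 0.48 (95% interval 0.28 to 0.69) on day 9, with adjusted p of 0.000776 and 0.00118. With median-ratio scaling the B copy was also called as risen on both days, by 0.32 and 0.36 (adjusted p 0.00236 and 0.00109).

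Among the pairs are 2 subunits of prefoldin, the chaperone that hands unfolded proteins to the cytosolic chaperonin. The pfdB pair (PFDN6) rose, from 27.9 ± 0.487 FPKM in A and 32.9 ± 0.535 in B on day 0 to 42.1 ± 4.73 and 44.6 ± 1.90 on day 9, by 0.57 and 0.43. On day 6 its A copy was at 40.01 ± 0.647 and its B copy at 36.0 ± 0.601 FPKM, an unequal change of 0.38 (95% interval 0.22 to 0.54) (adjusted p 0.000906), and A was the higher in all libraries of that day only. The PFDN2 pair was at 24.7 ± 0.541 and 20.1 ± 0.849 FPKM on day 0 and at 21.1 ± 1.72 and 13.9 ± 0.558 on day 6. The change of its A copy was -0.22 on day 6 and -0.20 on day 9, and with median-ratio scaling it was 0.05 and 0.01. Those calls were also lost without replicate 1 of day 0 or of day 6 for day 6, and without replicate 1 or 3 of day 0 or 2 or 3 of day 9 for day 9 (values between -0.27 and -0.16 and between -0.26 and -0.17). Its unequal change of 0.28 on day 6 (adjusted p 0.00980) was lost without replicate 3 of day 6 (adjusted p 0.0517; values between 0.20 and 0.35 over the left-out libraries).

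The UBE2V copies, ubiquitin-conjugating enzyme variants, were the most alike of all 40 pairs in their changes. The A copy (Pag.A06G000890.v3.1) stood at 87.9, 85.9 and 89.2 FPKM (day 0), 75.6, 79.7 and 80.8 (day 3), 72.7, 74.8 and 72.0 (day 6) and 72.6, 68.7 and 71.0 (day 9). The B copy (Pag.B06G000790.v3.1) stood at 76.5, 79.5 and 80.2 FPKM (day 0), 69.3, 75.9 and 72.0 (day 3), 63.5, 63.1 and 61.1 (day 6) and 61.0, 65.3 and 67.4 (day 9). Both were lower than on day 0 in every later library. No bound of the 3 intervals of its unequal change was further than 0.18 from 0, so that a difference larger than that lies outside the 95% intervals on each day. The falls themselves, -0.31 and -0.28 on day 9, were lost with median-ratio scaling (adjusted p 0.0586 and 0.179).

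Under membrane traffic 8 copies of 4 genes were grouped. On day 3, 0 were called by limma at an adjusted p under 0.05 (2 at an unadjusted p under 0.05). On day 6, 5 had risen and 2 (CRIPT B and TRAPPC3 B) had fallen, and on day 9, 5 had risen and 1 had fallen. TRAPPC3, a subunit of the TRAPP complexes that tether vesicles between endoplasmic reticulum and Golgi, went in opposite directions. Its A copy (Pag.A01G004715.v3.1) stood at 27.9, 26.6 and 28.8 FPKM (day 0), 28.6, 31.8 and 29.4 (day 3), 35.3, 36.2 and 33.3 (day 6) and 32.1, 30.2 and 34.6 (day 9). Its B copy (Pag.B01G004410.v3.1) stood at 29.3, 27.7 and 27.0 FPKM (day 0), 27.6, 30.8 and 30.9 (day 3), 21.1, 20.3 and 22.01 (day 6) and 25.9, 20.7 and 26.0 (day 9). The copies overlapped on days 0 and 3 and were apart on days 6 and 9, A above its day 0 values and B below. On day 6 the A copy had risen by 0.32 ± 0.06 (SE, adjusted p 0.000384) and the B copy had changed by -0.39 ± 0.08 (adjusted p 0.000961). The unequal change was 0.71 (95% interval 0.55 to 0.87), with an adjusted p of 3.72e-06, and 0.42 on day 9 (adjusted p 0.000592). The share of A went from 50.1 ± 1.22% on day 3 to 62.3 ± 1.98% on day 6. The fall of B was lost with median-ratio scaling on both days (adjusted p 0.208 and 0.990), and on day 9 also without replicate 1 or 2 of day 0 or replicate 2 of day 9 (values between -0.26 and -0.10), whereas the difference between the copies was called in every alternative without a minimum change.

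TMED2, a cargo receptor of the same route, and EMC10, of the membrane protein insertion complex of the endoplasmic reticulum, rose in both copies. TMED2, at 35.9 ± 0.476 and 34.1 ± 2.04 FPKM before drought, was at 46.8 ± 0.302 and 43.8 ± 3.51 on day 9, and its unequal change stayed within 0.25 of 0 in all 3 intervals. EMC10 went from 23.9 ± 1.76 and 30.9 ± 1.76 FPKM to 31.1 ± 1.51 and 38.0 ± 1.69, by 0.37 and 0.29, with an unequal change of 0.08 (95% interval -0.11 to 0.26). CRIPT, named for a mammalian protein, was placed in this group without a known traffic role. Its B copy went from 42.6 ± 4.52 FPKM on day 0 to 29.1 ± 4.16 on day 6, by -0.54 (adjusted p 0.00470). That fall was lost with median-ratio scaling (adjusted p 0.0839). CRIPT had the widest interval of unequal change, 0.55 (95% interval -0.12 to 1.22) on day 6, and its A copy stood at 44.1 ± 8.88 FPKM on day 9. Any difference between its copies within that interval is compatible with these libraries, and no unequal change was called for it.

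Of 3 genes for metal, amino acid and ion transport, CTNS moved in opposite directions and the other 2 fell. CTNS, the cystine exporter of lysosomes in animals, belongs to a family of vacuolar transporters in plants. Its A copy (Pag.A17G001114.v3.1) stood at 21.5, 20.5 and 21.7 FPKM (day 0), 18.1, 19.99 and 20.7 (day 3), 18.1, 19.5 and 17.9 (day 6) and 16.6, 17.8 and 18.4 (day 9). Its B copy (Pag.B17G001090.v3.1) stood at 20.6, 22.1 and 21.6 FPKM (day 0), 27.9, 28.4 and 25.0 (day 3), 26.5, 24.4 and 27.4 (day 6) and 23.96, 23.1 and 24.1 (day 9). The copies overlapped on day 0, and B was above A in all later libraries. The B copy rose by 0.32 ± 0.06 on day 3 and 0.27 ± 0.06 on day 6 (SE), with adjusted p of 0.000708 and 0.00110. The A copy changed by -0.11, -0.19 and -0.26 on days 3, 6 and 9, with adjusted p of 0.143, 0.0115 and 0.00178. Its change on day 6 was 0.08 with median-ratio scaling, and its call on both days was then lost (adjusted p 0.251 and 0.428). The rise of B on day 9, 0.14 (adjusted p 0.0462), was lost in 10 alternatives, among them without replicate 1 or 3 of day 0, replicate 1 of day 3 or of day 6, or any 1 replicate of day 9 (values between 0.11 and 0.16, adjusted p of up to 0.146). The unequal change itself was -0.43 (95% interval -0.63 to -0.23) on day 3, -0.46 (95% interval -0.66 to -0.26) on day 6 and -0.40 (95% interval -0.59 to -0.20) on day 9, with adjusted p of 0.00685, 0.00119 and 0.00406, called in every alternative without a minimum change.

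ATOX1, a copper chaperone that carries copper within the cytosol, was the most abundant pair and fell more in B. Its A copy (Pag.A10G002515.v3.1) stood at 1429, 1398 and 1459 FPKM (day 0), 1265, 1399 and 1354 (day 3), 1033, 1035 and 1036 (day 6) and 969, 902 and 917 (day 9). Its B copy (Pag.B10G002290.v3.1) stood at 2550.1, 2499 and 2615 FPKM (day 0), 2032, 2264 and 2197 (day 3), 1319, 1339 and 1321 (day 6) and 1305, 1220.3 and 1304 (day 9). B was above A in every library, and the gap narrowed. Day by day, A made up 35.9 ± 0.0496% (day 0), 38.2 ± 0.130% (day 3), 43.8 ± 0.210% (day 6) and 42.1 ± 0.736% (day 9) of the sum. The unequal change was 0.15 (95% interval 0.11 to 0.19), 0.48 (95% interval 0.44 to 0.52) and 0.38 (95% interval 0.34 to 0.42) on days 3, 6 and 9, with adjusted p of 6.19e-05, 2.57e-11 and 4.97e-10. It was also the only pair of the 40 whose difference shrank by a called amount from day 6 to day 9, by -0.10 on the same scale (adjusted p 0.00727). That call was lost without trend and robust variance moderation and with only the libraries of days 6 and 9 (adjusted p of up to 0.495).

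TPC1, the slow vacuolar cation channel of plants, fell in both copies while the ratio of A to B grew, from 1.67 on day 0 to 2.18 on day 9. Levels of A and B were 103 ± 2.70 and 61.4 ± 2.47 FPKM (day 0), 61.5 ± 0.498 and 30.5 ± 1.17 (day 6), and 63.4 ± 2.25 and 29.1 ± 0.359 (day 9). A was higher in every library. The B copy fell more, with an unequal change of 0.26 (95% interval 0.12 to 0.40) on day 6 and 0.37 (95% interval 0.23 to 0.51) on day 9 (adjusted p 0.00670 and 0.000548), and the share of A rose from 62.6 ± 1.46% to 68.5 ± 1.04%.

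Enzymes, redox proteins and lipid-related genes, 7 pairs with 14 copies, were mixed: 6 copies had risen and 2 fallen (day 3), 4 and 8 (day 6), and 2 and 9 (day 9). CDC25, named for the cell-cycle phosphatase of yeast and animals and studied in Arabidopsis as an arsenate reductase, rose in both copies. Its A copy (Pag.A06G001776.v3.1) stood at 63.7, 62.7 and 63.8 FPKM (day 0), 65.8, 70.6 and 72.3 (day 3), 91.7, 93.3 and 92.7 (day 6) and 92.7, 91.4 and 94.1 (day 9). Its B copy (Pag.B06G001662.v3.1) stood at 82.0, 83.9 and 85.0 FPKM (day 0), 107, 106 and 105 (day 3), 163, 164 and 152 (day 6) and 152, 148 and 158 (day 9). B was above A throughout, and every later library was above day 0 for both. Unequal change amounted to -0.21 (95% interval -0.30 to -0.11), -0.39 (95% interval -0.48 to -0.29) and -0.32 (95% interval -0.41 to -0.22) on days 3, 6 and 9, toward B, with adjusted p of 0.00763, 8.78e-06 and 6.71e-05. The A share went from 43.1 ± 0.515% to 36.7 ± 1.03% on day 6. The rise of A on day 3, 0.13 (adjusted p 0.0110), was lost without replicate 3 of that day (values between 0.10 and 0.17 over the left-out libraries, adjusted p 0.0505).

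frmB, S-formylglutathione hydrolase of formaldehyde detoxification, showed a fall in B above all. Its A copy (Pag.A06G002634.v3.1) stood at 34.6, 32.9 and 35.0 FPKM (day 0), 37.0, 39.02 and 35.5 (day 3), 30.8, 29.3 and 29.0 (day 6) and 31.7, 32.6 and 31.3 (day 9). Its B copy (Pag.B06G002422.v3.1) stood at 29.9, 32.9 and 30.5 FPKM (day 0), 33.9, 33.9 and 34.2 (day 3), 19.0, 17.1 and 21.0 (day 6) and 19.2, 20.9 and 21.2 (day 9). The copies overlapped on day 0 and were apart from day 3 on, with A higher. The B copy changed by -0.68 ± 0.07 on day 6 and -0.58 ± 0.07 on day 9 (SE), with adjusted p of 2.11e-06 and 8.61e-06. The A copy changed by -0.20 on day 6 (adjusted p 0.00168), which was 0.07 with median-ratio scaling, and by -0.10 on day 9 (adjusted p 0.0628). The unequal change was 0.49 (95% interval 0.31 to 0.66) and 0.48 (95% interval 0.31 to 0.66) (adjusted p 0.000262 and 0.000307), and the share of A went from 52.3 ± 2.07% on day 0 to 61.0 ± 2.65% on day 6.

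APOD, a lipocalin, a small carrier of lipids, rose in both copies on day 3. Its A copy (Pag.A18G000447.v3.1) stood at 197, 195 and 194 FPKM (day 0), 312, 322 and 319 (day 3), 149, 147 and 151 (day 6) and 175, 175 and 178 (day 9). Its B copy (Pag.B18G001181.v3.1) stood at 191, 199 and 197 FPKM (day 0), 339, 363 and 358 (day 3), 172, 165 and 172 (day 6) and 204, 193 and 198 (day 9). Both copies were far above day 0 on day 3 and below it on day 6, and B was the higher from day 3 on. The day 3 rises were 0.70 and 0.85 (adjusted p 1.65e-09 and 4.1e-09). The day 6 changes were -0.39 and -0.20, and that of B was 0.07 with median-ratio scaling. On day 9 the changes were -0.15, called as a fall, and 0.02, not called. With that scaling both were called as risen on day 9, by 0.06 and 0.23 (adjusted p 0.0499 and 0.000230). Although small, the unequal change of -0.15, -0.19 and -0.17 was called on all 3 days (adjusted p 0.00494, 0.000260 and 0.000624).

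D2HGDH, D-2-hydroxyglutarate dehydrogenase of mitochondria, and yaeR, which carries a bacterial name, fell in both copies and more in B. D2HGDH, at 33.4 ± 1.32 and 45.8 ± 2.27 FPKM before drought, was at 20.7 ± 2.13 and 22.2 ± 1.31 on day 9, with an unequal change of 0.34 (95% interval 0.21 to 0.48) (adjusted p 0.000555). The yaeR copies (Pag.A18G001044.v3.1 and Pag.B18G000591.v3.1) went from 49.2 ± 1.55 and 53.7 ± 1.75 FPKM to 16.8 ± 0.718 and 14.8 ± 1.097, with 0.29 (95% interval 0.13 to 0.45) (adjusted p 0.00734). In yaeR the A copy was below B in all libraries of day 0 and above it in all libraries of day 9.

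The glutaredoxin grxD, a monothiol thiol-redox protein, stood at 38.8 ± 0.993 and 38.5 ± 2.14 FPKM on day 0 and at 28.8 ± 1.86 and 23.5 ± 2.58 on day 9, with changes of -0.42 and -0.69. With median-ratio scaling the fall of A was lost (adjusted p 0.1001), and both copies were called as risen on day 6, by 0.29 and 0.23 (adjusted p 0.0308 and 0.0152). No unequal change was called for grxD, with 0.27 (95% interval -0.00 to 0.55) on day 9. lpxB, named for a bacterial enzyme of lipid A synthesis, rose on day 6 to 36.7 ± 0.537 FPKM for A and 26.4 ± 0.971 for B, from 27.1 ± 0.694 and 22.9 ± 0.662 on day 0. Its unequal change of 0.23 on day 6 and 0.23 on day 9 was called (adjusted p 0.0209 and 0.0199). The calls were lost without replicate 1 or 3 of day 0, without replicate 1 or 2 of day 6 for day 6, and without replicate 1 or 3 of day 9 for day 9. Values then lay between 0.22 and 0.25 and between 0.18 and 0.28, with adjusted p of up to 0.0605 and 0.0914.

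The last 5 pairs share no role. NDRG1, of the NDR family, and PPM1A, of the PP2C phosphatases, had some of the largest falls. The A copy of NDRG1 (Pag.A13G000020.v3.1) stood at 33.3, 37.7 and 37.2 FPKM (day 0), 16.7, 17.4 and 18.7 (day 3), 7.04, 4.98 and 7.12 (day 6) and 3.97, 4.85 and 4.70 (day 9). Its B copy (Pag.B13G000412.v3.1) stood at 47.5, 48.3 and 49.0 FPKM (day 0), 19.8, 21.2 and 24.4 (day 3), 6.53, 6.70 and 6.58 (day 6) and 4.73, 4.77 and 4.24 (day 9). Both copies fell from each day to the next without overlap, and the copies, apart on days 0 and 3, overlapped on days 6 and 9. The changes on day 9 were -2.75 ± 0.11 for A and -3.14 ± 0.07 for B (SE), with adjusted p of 6.57e-10 and 2.79e-12. B fell more, by 0.36 on day 6 and 0.39 on day 9 (adjusted p 0.0297 and 0.0191). These calls were lost without replicate 1 of day 0, without replicate 3 of day 0 or replicate 1 or 3 of day 6 for day 6, and without replicate 3 of day 9 for day 9, with values between 0.28 and 0.51 and between 0.32 and 0.48 and adjusted p of up to 0.126 and 0.0809.

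The PPM1A copies changed unequally by a called amount on day 9 only. The A copy (Pag.A15G001360.v3.1) stood at 108, 109 and 106 FPKM (day 0), 58.2, 60.1 and 64.7 (day 3), 18.9, 20.04 and 19.1 (day 6) and 21.9, 22.6 and 21.6 (day 9). The B copy (Pag.B15G001376.v3.1) stood at 121, 129 and 129 FPKM (day 0), 75.5, 78.8 and 77.1 (day 3), 22.6, 22.02 and 22.8 (day 6) and 19.8, 22.8 and 21.8 (day 9). A was below B on days 0, 3 and 6, and the copies overlapped on day 9. The changes on day 6 were -2.41 and -2.44, with an unequal change of 0.02 (95% interval -0.10 to 0.15). On day 9 the unequal change was 0.27 (95% interval 0.14 to 0.39) (adjusted p 0.00276), and the share of A was 50.7 ± 1.58%, against 46.0 ± 0.936% on day 0.

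K06995, known by its KO number only, fell in both copies on days 6 and 9, and more in B. Its A copy (Pag.A13G000534.v3.1) stood at 74.5, 78.0 and 76.3 FPKM (day 0), 70.6, 82.2 and 79.1 (day 3), 41.8, 43.5 and 42.5 (day 6) and 45.6, 47.6 and 50.2 (day 9). Its B copy (Pag.B13G000915.v3.1) stood at 93.7, 102 and 97.0 FPKM (day 0), 83.6, 87.7 and 88.9 (day 3), 46.4, 44.7 and 43.5 (day 6) and 47.9, 45.2 and 43.9 (day 9). A was below B on days 0 and 3. On days 6 and 9 the values of the copies overlapped across libraries, though on day 6 B was above A within each library. The unequal change was 0.19 on day 3, not called (adjusted p 0.0792), 0.28 (95% interval 0.15 to 0.41) on day 6 and 0.42 (95% interval 0.28 to 0.55) on day 9 (adjusted p 0.00262 and 0.000104). The share of A was 43.9 ± 0.558%, 47.1 ± 1.30%, 48.7 ± 1.13% and 51.1 ± 2.28% on the 4 days.

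FGFR10P, listed in GO with adenylate kinase activity, rose steadily in both copies. Its A copy (Pag.A08G002065.v3.1) stood at 29.8, 26.4 and 27.3 FPKM (day 0), 35.2, 34.9 and 36.0 (day 3), 45.0, 42.9 and 44.0 (day 6) and 56.2, 52.0 and 53.9 (day 9). Its B copy (Pag.B08G002000.v3.1) stood at 24.1, 22.8 and 22.4 FPKM (day 0), 27.4, 28.1 and 28.9 (day 3), 39.9, 37.3 and 43.6 (day 6) and 49.1, 46.1 and 47.7 (day 9). Every day stood above the day before without overlap in both copies. On day 9 the copies had risen by 0.93 ± 0.05 and 1.01 ± 0.06 (SE), with adjusted p of 4.46e-09 and 8.5e-09, and their changes differed by -0.08 (95% interval -0.20 to 0.04). PDCD5, named for a mammalian programmed cell death protein, was not called in either copy on any of the 3 days, with means between 24.8 ± 2.66 and 26.8 ± 1.78 FPKM for A and between 21.0 ± 1.14 and 25.1 ± 3.45 for B. With median-ratio scaling its B copy was called as risen on day 9, by 0.31 (adjusted p 0.00732).

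The copy with the higher mean was the same on all 4 days in 24 pairs and changed at least once in 16. Between day 0 and day 9 it changed in 13 pairs, and in 8 of these the unequal change was called on day 9. By the size of that change the first 5 were UFC1, K06995, TRAPPC3, HRAD17 and yaeR. In UFC1 and yaeR the libraries of days 0 and 9 did not overlap between copies on either day, in opposite order. In TRAPPC3 they overlapped on day 0 only. In K06995 and HRAD17 they were apart on day 0 and overlapped on day 9. Within each library of day 9, HRAD17 B was above HRAD17 A. Over all 40 pairs the A copy was the higher in 20 (day 0), 20 (day 3), 23 (day 6) and 21 (day 9). The higher copy stood over 1.5 times the lower in 5, 6, 9 and 6 pairs on those days, and the highest such ratio was 3.92 times on day 6, in ndhU. Since the copies of 25 pairs differed by under 1.2 times on day 0, small shifts could change their order. None of these counts was taken over all tested pairs or pathway pairs. Whether the 40 pairs stand out in them is unknown.

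**Figure D4:**
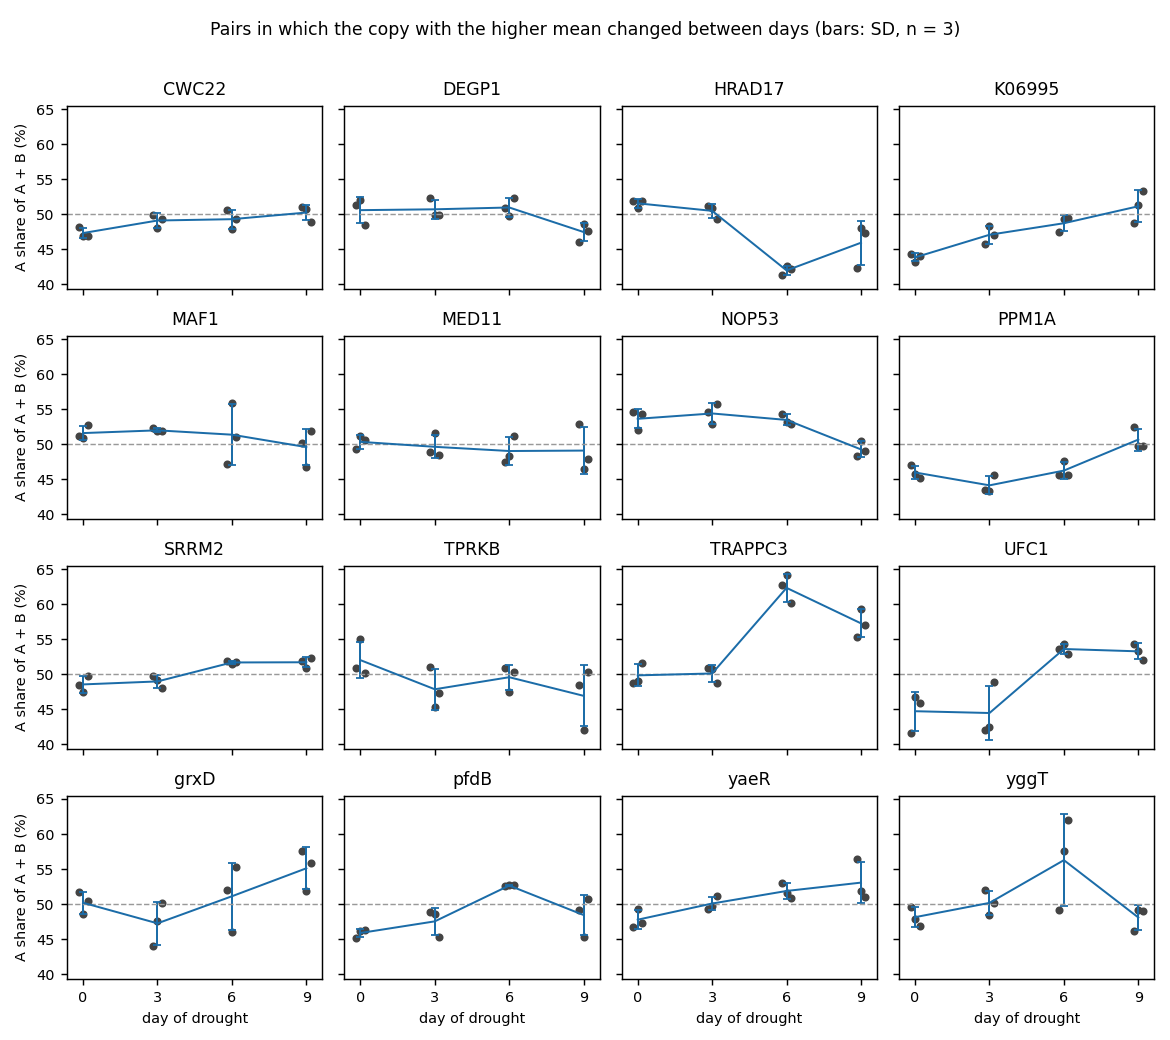
Share of the A copy in the summed FPKM of both copies (percent) by day of drought in the 16 pairs whose higher copy changed between days, with each library as a point and the day mean with SD (n = 3) as a line; the dashed line marks equal copies, and the axis spans 40% to 65%. TRAPPC3 and UFC1 lie above it on days 6 and 9, HRAD17 lies below it on those days, and many other pairs stay close to it.

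Calls were most frequent in the step from day 3 to day 6, though the steps were not compared by a test. From day 0 to day 3, as given above with the background shares, 17 of 80 copies rose and 35 fell, and 6 of 40 pairs changed unequally. From day 3 to day 6, 22 of 80 copies rose and 47 fell, beside 25.7% and 46.9% of all tested genes and 23.4% and 60.2% of those at the day 0 level of the pairs, and 13 of 40 pairs (32.5%) changed unequally, 8 toward A and 5 toward B, beside 25.9% of all tested pairs and 31.7% of pathway pairs at that level. With median-ratio scaling 32 copies rose and 36 fell in this step. From day 6 to day 9, 14 copies rose (17.5%) and 12 fell (15%), beside 12.9% and 8.73% of all tested genes and 22.1% and 16.6% of genes at the day 0 level of the pairs. With that scaling 8 rose and 15 fell. In this step 2 pairs (5%) changed unequally, ATOX1 toward B and PPM1A toward A, beside 2.12% of all tested pairs and 5% of pathway pairs at that level. The call of ATOX1 was lost in 2 alternatives and that of PPM1A in 15. The largest steps from day 3 to day 6 were those of ndhU, at 1.25 (95% interval 1.02 to 1.47), and TRAPPC3, at 0.69 (95% interval 0.53 to 0.86), with adjusted p of 4.45e-07 and 8.55e-06.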

How the data were processed

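Leaf RNA of wild-type 84K poplar was sequenced before drought (day 0) and at 3 later time points (days 3, 6 and 9), each with 3 libraries in the labels. The authors deposited a table of FPKM values per gene model, which is the unit its name gives. No source used here names the aligner, the genome build, the counting program or the treatment of reads that match both copies. The table's columns were matched to samples by the day code in their labels. The further tables of gene subsets were not used.

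The pairs, roles and tests were chosen with earlier results of these data known, and the roles were assigned from KO names after values were seen, so roles are described by counts and medians with no test.

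The 40736 genes that reached 1 FPKM in 3 or more of 12 libraries were fitted as log2(FPKM + 1) with 1 mean per day by limma 3.58.1 in R 4.3.3 (statmod 1.5.0), using robust variance moderation and a trend on level. P-values were adjusted by Benjamini and Hochberg over all tested genes, and a call means an adjusted p under 0.05, whatever the size of change. Unequal change was tested in the same way on log2(FPKM + 1) of A minus that of B in the same library, over the 756 of 847 one-to-one pairs in which both copies passed the filter. No read counts were used, so counting precision is unknown. All 80 copies passed the filter. Relative depth came from the spacing of low values. The scripts were tested on simulated data.

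Named pairs follow a rule by day: the 5 largest called unequal changes in each direction without overlap of the libraries, the 5 pairs in which both copies rose most and the 5 in which both fell most, pairs called in opposite directions, the 5 pairs closest to equal change, up to 5 pairs whose higher copy changed, the neighbours of the level threshold, and pairs called between days 6 and 9. The remaining pairs are given so that each of the 40 is accounted for. Alternatives covered the pseudocount, the filter, library scaling by median ratios, variance moderation, the replicate number as a block, fits on only the days compared, a minimum change, and leaving out each library. Python 3.11.15 was used for tables and figures, with pandas 2.3.3, numpy 2.4.6 and matplotlib 3.10.9.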

Additional observations from a re-analysis of the deposited data

Results flagged for a closer look

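The unequal change of A and B against day 0 was larger or smaller on one day than on the next in 15 cases, by limma's test of the step itself over 756 pairs. From day 3 to day 6 the difference between copies moved toward A by 1.25 in ndhU (adjusted p 4.45e-07), 0.69 in TRAPPC3 (8.55e-06), 0.52 in UFC1 (0.00102), 0.49 in frmB (0.000461), 0.39 in DPH5 (0.0421), 0.33 in ATOX1 (4.43e-09), 0.29 in pfdB (0.0101) and 0.22 in TPC1 (0.0242). It moved toward B by -0.45 in HRAD17 (0.000942), -0.29 in FTRC (0.000718), -0.19 in FGFR10P (0.0184), -0.18 in CDC25 (0.00899) and -0.13 in RD21 (0.00104). In TRAPPC3, UFC1 and frmB the unequal change on day 3 was 0.01, -0.01 and -0.01, and on day 6 it was 0.71, 0.50 and 0.49. The call of DPH5 was lost in 13 alternatives, among them without any 1 of the libraries of days 0 and 3, with values between 0.25 and 0.58 and an adjusted p of up to 0.528. That of TPC1 was lost without replicate 1 or 2 of day 3 or replicate 1 of day 6 (values between 0.18 and 0.29, adjusted p of up to 0.108). That of FGFR10P was lost without replicate 1 of day 3 or replicate 3 of day 6 (values between -0.23 and -0.14, adjusted p of up to 0.0921), and that of pfdB without replicate 3 of day 3 (values between 0.22 and 0.32 over the left-out libraries, adjusted p 0.0538). Without trend and robust variance moderation the calls of TPC1 and FGFR10P were lost as well, and so were those of CDC25 and RD21 (adjusted p 0.0662 and 0.115).

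From day 6 to day 9 the difference moved by -0.10 in ATOX1 (adjusted p 0.00727), from 0.48 to 0.38, a call lost without trend and robust variance moderation and with only the libraries of those days (adjusted p of up to 0.495). It moved by 0.24 in PPM1A (adjusted p 0.0489), from 0.02 to 0.27. The call of PPM1A was lost in 15 alternatives, with an adjusted p of up to 0.167, and among them were those without any 1 library other than replicate 3 of day 3 or replicate 2 of day 6 (values between 0.19 and 0.28). Each day is 1 batch by its label, so these steps and the batches cannot be told apart.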

How the results depend on the processing

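No unequal change of a pair that was called against day 0 changed direction under any alternative run. Of 53 such calls, 0 were lost with median-ratio scaling, 0 with no filter beyond a value above 0 and 0 with the replicate block, 1 with a pseudocount of 0.1, 2 with a pseudocount of 5, 3 with only the libraries of the 2 days compared and 6 with no trend and no robust moderation. Leaving out 1 library lost between 0 and 8. Of 189 copy calls against day 0, 28 were lost with median-ratio scaling. In 12 the sign changed, to 0.0753 in CTNS A, 0.0473 in PFDN2 A, 0.0167 in UBE2V A, 0.0744 in frmB A, 0.0733 in APOD B, 0.115 in CWC22 B and 0.00925 in MAF1 B on day 6, and to 0.0638 in APOD A, 0.0308 in NCL A, 0.00865 in NOP53 A, 0.00789 in PFDN2 A and 0.0619 in lpxB B on day 9. APOD A on day 9 was called as risen under this scaling (adjusted p 0.0499). Another 26 copy calls over the 5 comparisons were gained with it.

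An additional minimum change of 1 on the log2 scale left 0 copies risen and 2 fallen (day 3), 0 and 23 (day 6), 1 and 27 (day 9), 0 and 20 from day 3 to day 6, and 0 and 0 from day 6 to day 9. It left 0, 1, 1, 1 and 0 pairs toward A in these comparisons and 0 toward B in each. On day 3, pairs toward A numbered 5 with only the libraries of the 2 days compared, and pairs toward B numbered 1 with no trend and no robust moderation. With that last setting, pairs toward B from day 3 to day 6 numbered 2. From day 6 to day 9, copies risen numbered 8 with median-ratio scaling and 8 with only those days' libraries. In that step, pairs toward A numbered 0 with a pseudocount of 5, with no filter beyond a value above 0, with no trend and no robust moderation, with the replicate block and with only those days' libraries, and pairs toward B numbered 0 with no trend and no robust moderation and with only those days' libraries.

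Leaving out each library in turn gave 13 to 18 copies risen and 27 to 38 fallen on day 3, 19 to 20 and 48 to 52 (day 6), 17 to 19 and 46 to 49 (day 9), 21 to 22 and 45 to 48 from day 3 to day 6, and 10 to 15 and 10 to 12 from day 6 to day 9. Pairs toward A and toward B numbered 2 to 4 and 3 to 3, 13 to 19 and 6 to 6, 12 to 16 and 6 to 8, 6 to 9 and 4 to 6, and 0 to 1 and 1 to 3 in the same order.

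Over 18 pairs of libraries that share a replicate number on different days, the correlation of their deviations from the day means lay between -0.027 and 0.038. The values thus showed no pairing by number. They cannot tell whether libraries of the same number shared plants or handling. With the replicate block, 15 copies rose and 32 fell (day 3), 19 and 51 (day 6), 17 and 48 (day 9), 22 and 47 from day 3 to day 6, and 11 and 12 from day 6 to day 9. Pairs toward A and B were 3 and 3, 19 and 6, 15 and 7, 7 and 5, and 0 and 1.

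The data are FPKM without read counts, with 3 libraries a day and 1 batch label a day. How many reads stand behind copies at a few FPKM on days 6 and 9, such as ndhU B, yggT and tig, is unknown.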
